A study of Mus musculus with 9 samples.

Results

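Interferon-stimulated genes are the genes that cells switch on after interferon binds its receptors. This account follows 46 of them in adult mouse hearts, chosen by gene symbol with earlier results of these data known. All 46 were found among the 15779 genes of the deposited tables. Of these, 38 belong to the set driven mainly by type I interferon, and 8 to a set driven strongly by type II interferon, which is the GTPases and the immunoproteasome subunits.

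The study measured polyA RNA from hearts of C57BL/6J mice in 9 libraries, 3 in each of 3 groups. Wild-type mice had received saline, and mice homozygous for the Mybpc3 allele R946X, a premature stop codon in the gene of cardiac myosin-binding protein C, had received either saline or a high dose of exABE8e. ABE stands for adenine base editor, an enzyme that turns A into G at a site chosen by a guide RNA. The series' design text describes delivery by the adeno-associated virus AAV9, with editor expression directed to cardiomyocytes. The groups are called wild type, saline mutant and treated mutant below, and libraries carry the replicate numbers of the labels. The saline and treated mutants share the allele. No group received a vector alone and no wild-type mice were treated, so the effects of vector, editor and allele repair cannot be told apart. Age beyond adult and sex are not given in the labels, and the labels do not say whether each library is 1 animal, so the p-values measure the spread between these libraries.

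Type I interferons act through the receptor chains IFNAR1 and IFNAR2 and the kinases JAK1 and TYK2 to form a complex that contains STAT2 and IRF9 and binds the interferon-stimulated response element (ISRE) in promoters. Type II interferon, made mainly by T and NK cells, acts through IFNGR1 and IFNGR2, and its signal ends at the gamma-activated site (GAS). Many genes answer to both. In heart tissue these genes are expressed by cardiomyocytes, endothelial cells, fibroblasts and resident macrophages, and a bulk library cannot say which of these carried the signal, nor separate fewer cells of a type from less RNA per cell.

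The promoters of the members show both elements. The ISRE was searched as GAAA, any 2 bases and GAAA, and the GAS as TTC, any 3 bases and GAA, each on both strands, in RefSeq promoters of the build GRCm38.p6 that span 250 bases before to 50 bases after a gene's start. Overlapping matches were allowed. An ISRE match was present in 18 of the 40 promoters of members (45%), against 1131 of 32851 promoters of all genes (3.44%). A GAS match was present in 8 of the 40 (20%), against 2726 of 32851 (8.3%). The 40 promoters belong to 35 of the 46 members, and 5 of the 7 matched type II genes held an ISRE, as did 12 of the 28 matched type I genes. These matches describe the letters only and are not measured binding.

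The stretches below are shown because they carry the element in 5 type I genes that were high in treated mutant replicate 2 and in 3 type II GTPases that were high in saline mutant replicate 2. Each is written 5′ to 3′ on the gene's own strand, lies before the RefSeq start site of its promoter, and has the ISRE and GAS letters in capitals. By the GENCODE gene positions, the Irgm1 stretch and the end of the Gbp3 stretch lie inside the gene.
Isg15: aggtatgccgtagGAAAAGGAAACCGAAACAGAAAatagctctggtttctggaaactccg
Ifit1: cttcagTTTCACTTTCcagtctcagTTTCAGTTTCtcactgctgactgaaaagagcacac
Ifit3: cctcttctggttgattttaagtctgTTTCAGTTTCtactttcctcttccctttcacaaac
Rsad2: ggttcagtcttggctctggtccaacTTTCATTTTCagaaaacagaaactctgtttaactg
Oas3: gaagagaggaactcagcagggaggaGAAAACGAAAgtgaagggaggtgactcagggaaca
Igtp: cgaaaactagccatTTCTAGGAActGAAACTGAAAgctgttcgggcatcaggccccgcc
Irgm1: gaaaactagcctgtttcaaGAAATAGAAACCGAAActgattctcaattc
Gbp3: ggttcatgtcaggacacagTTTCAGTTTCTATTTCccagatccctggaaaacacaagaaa

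In GRCm38.p6 the Isg15 stretch is chr4:156200850-156200909 on the minus strand, where 3 overlapping ISRE matches run together. The Ifit1 stretch is chr19:34640779-34640838 and the Ifit3 stretch chr19:34583382-34583441, both on the plus strand, with the ISRE on the opposite strand and so printed as its complement, TTTC, 2 bases and TTTC. Rsad2 is at chr12:26456538-26456597 and Oas3 at chr5:120777700-120777759, both on the minus strand. Igtp, at chr11:58199497-58199555 on the plus strand, has a GAS match just before its ISRE match. Irgm1, at chr11:48871421-48871469 on the minus strand, and Gbp3, at chr3:142559980-142560039 on the plus strand, each hold 2 overlapping ISRE matches.

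A pair of type II genes had a GAS match in the shown stretch and no ISRE match there.
Gbp7: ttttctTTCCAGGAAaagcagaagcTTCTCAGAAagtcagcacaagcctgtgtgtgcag
Psmb8: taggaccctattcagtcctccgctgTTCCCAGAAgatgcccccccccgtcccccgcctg

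The Gbp7 stretch is chr3:142530224-142530282 and the Psmb8 stretch chr17:34198073-34198131, both on the plus strand. Both lie before the RefSeq start site, but by the GENCODE gene positions the Psmb8 stretch lies inside the gene. Elsewhere in its promoter window Gbp7 held 1 ISRE match, while Psmb8 held none.

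Each deposited value is a whole number on a scale that sums to between 999152 and 999382 in every library. An equal total does not by itself make a gene's values comparable between libraries. Whether the values are corrected for gene length is not known. Sequencing depth is not known from these values. Mybpc3 itself stood at 1510, 1795 and 2039 in wild-type, 133, 142 and 186 in saline mutant and 1024, 1374 and 1332 in treated mutant libraries. Saline mutant replicate 3 read high across the transcriptome: it exceeded every wild-type library for 50% of 13530 genes, against 18.2% to 29.4% for the other mutant libraries. Xist, the RNA of the inactive X chromosome, was present in wild-type replicate 1, saline mutant replicate 3 and treated mutant replicate 1 only. Treated mutant replicate 1 also held 38 for Ddx3y on the Y chromosome, beside 39 for Xist, a combination seen in no other library.

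The member genes separated the libraries within the groups more than they separated the groups. Summed over the 46 members, the value was 1088, 986 and 865 in the wild-type libraries, 828, 2279 and 1662 in saline mutant replicates 1, 2 and 3, and 1347 and 4253 in treated mutant replicates 1 and 2, while treated mutant replicate 3 lay inside the wild-type range. Saline mutant replicate 1 was thus just below the wild types, and treated mutant replicate 2 stood far above all other libraries. All 46 members in saline mutant replicate 2 and 43 in replicate 3 were above every wild-type library, and 4 were in replicate 1. For the treated mutants the counts were 37, 41 and 7 in replicates 1, 2 and 3. The 4 in saline mutant replicate 1 and the 7 in treated mutant replicate 3 were smaller shares than those of all genes given above.

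Saline mutant replicate 1 was the lowest of its group, without a tie, for 45 of 46 members, a place it took for 46.5% of all genes. Treated mutant replicate 2 was the highest of its group for 42 members, or 91.3%, against 27.1% of all genes. Treated mutant replicate 3 was the lowest for 40 members, against 17.7% of all genes.

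**Figure D1:**
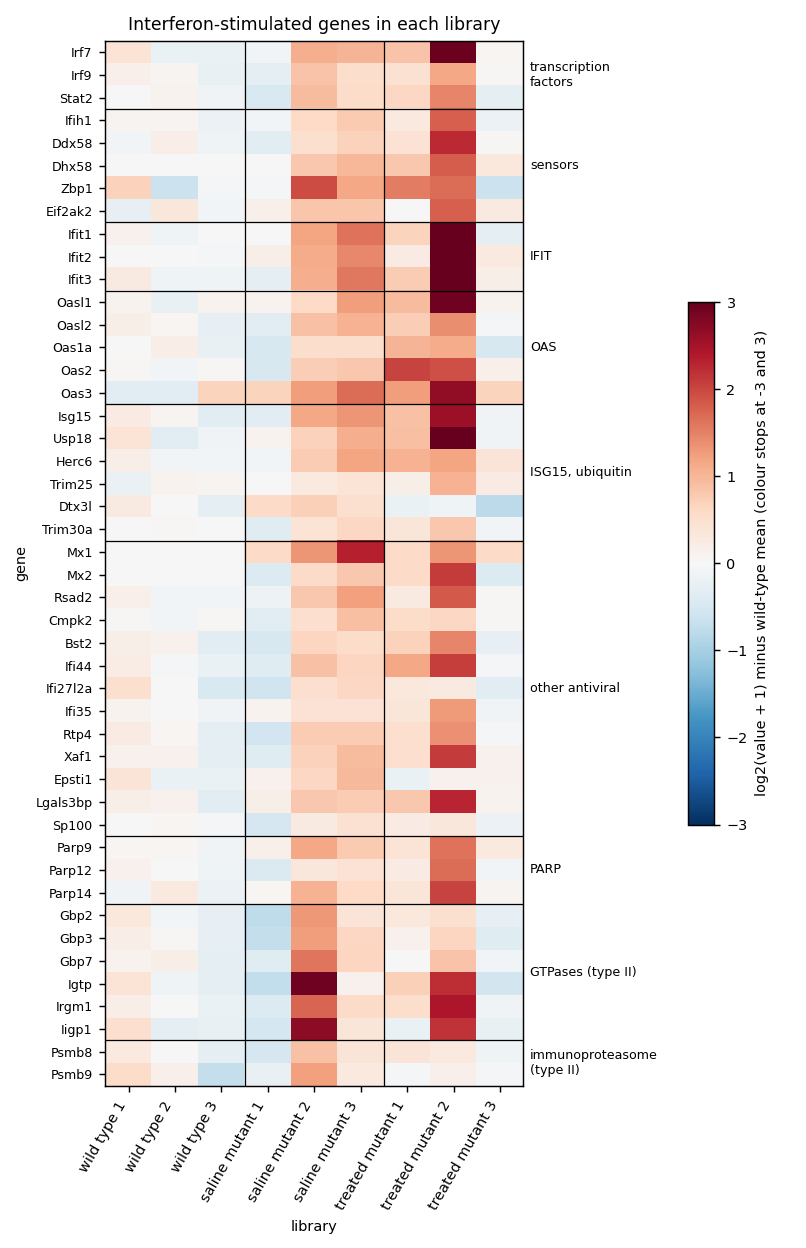
Heat map of the 46 members (rows, grouped by role) in the 9 libraries (columns). Colour gives log2(value + 1) minus the wild-type mean of that gene, red for higher and blue for lower, and stops at -3 and 3; treated mutant replicate 2 is the reddest column for type I genes, and saline mutant replicate 2 for the GTPases.

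Type I and type II members were not high in the same libraries to the same degree. On the log2(value + 1) scale, relative to the wild-type mean, the median type I member stood at -0.12, 0.76 and 0.80 in saline mutant replicates 1, 2 and 3 and at 0.56, 1.74 and 0.04 in the treated mutant replicates. The median type II member stood at -0.51, 1.46 and 0.39 in the saline mutants and at 0.22, 0.75 and -0.17 in the treated mutants. Saline mutant replicate 2 was therefore the library with the highest type II level, and treated mutant replicate 2 the library with the highest type I level.

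**Figure D2:**
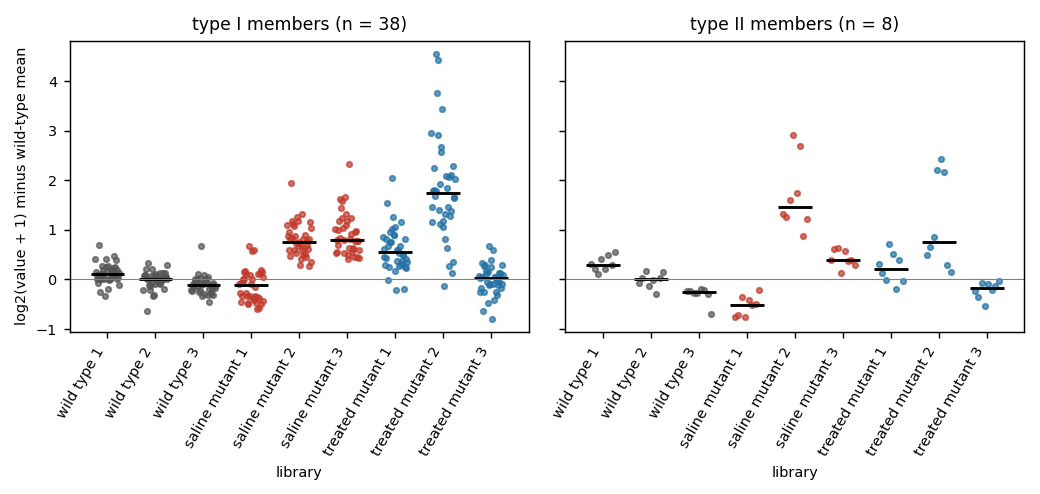
Level of each member in each library, as log2(value + 1) minus the wild-type mean, for the 38 type I members (left) and the 8 type II members (right). Points are genes and black bars medians; the type I median reaches 1.74 in treated mutant replicate 2 and the type II median 1.46 in saline mutant replicate 2.

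Between those 2 libraries, 33 of the 38 type I members were higher in treated mutant replicate 2, 1 was equal, and Zbp1, Dtx3l, Ifi27l2a and Epsti1 were higher in saline mutant replicate 2. Of the 8 type II members, 7 were higher in saline mutant replicate 2, and Irgm1 was the exception. These are single libraries, so the contrast is a description and has no test.

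**Figure D3:**
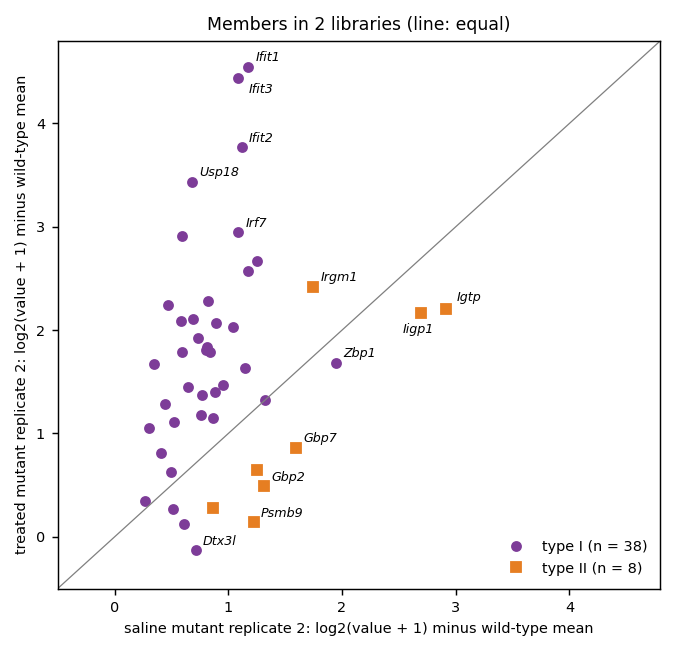
Each member's level in saline mutant replicate 2 (horizontal axis) and treated mutant replicate 2 (vertical axis), both as log2(value + 1) minus the wild-type mean. Circles are the 38 type I and squares the 8 type II members; 33 circles lie above the line of equal levels and 7 squares below it.

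The comparison of saline mutants with wild types addresses what the allele did to these genes. All 46 members had a positive fold change, where 8228 of all 13632 genes tested did. The members' median log2 fold change was 0.55 (0.07 over all genes tested), and the medians of the type I and type II sets were 0.55 and 0.53. None of the 46 members passed the test (limma on log2(value + 1), Benjamini-Hochberg adjusted p under 0.05 over 13632 genes), where 7.71% of all genes did. At an unadjusted p under 0.05, 11 members were higher and 0 lower, which is 23.9% of the members against 19.9% of all genes. Ifit2, Dtx3l, Mx1 and Parp9 were the 4 members (8.7%) whose groups did not overlap, all higher in the mutants. That share was below the 12.8% of all genes that did not overlap and were higher in the mutants, while 8.78% of all genes were lower without overlap and no member was. The authors' deposited list of changed genes for this comparison held 5 members, Ifit1, Ifit2, Ifit3, Rsad2 and Parp9, all higher, among 689 genes, or 4.42% of their table.

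This result turned on 1 library. Without saline mutant replicate 1, in which the members were lowest, 27 of the 46 members passed, all higher, 24 of type I and 3 of type II (Gbp3, Gbp7 and Irgm1), where 7.56% of 13713 genes passed. The median log2 fold change was then 0.82. That library is set apart by the members' own low values, so these calls are not independent evidence of a rise. Ifit1 had a log2 fold change of 1.40 ± 0.18 (SE, adjusted p = 0.00266) in that fit and of 0.93 ± 0.35 (adjusted p = 0.175) with all 6 libraries, both from limma. With saline mutant replicate 2 or 3 left out instead, no member passed, and the median was 0.28 or 0.33. The type II median was -0.05 without replicate 2. The 2 remaining mutant libraries are those with the most macrophage marker RNA: the 10 markers summed to 518, 771 and 1005 in saline mutant replicates 1, 2 and 3, to 485 to 670 in the wild types and to 495 to 661 in the treated mutants. Saline mutant replicate 3 also read high across the transcriptome. In treated mutant replicate 2, where type I members were highest, the marker sum was 595, inside the wild-type range. The part of macrophage RNA in the members' values was not tested in any of these libraries.

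**Figure D4:**
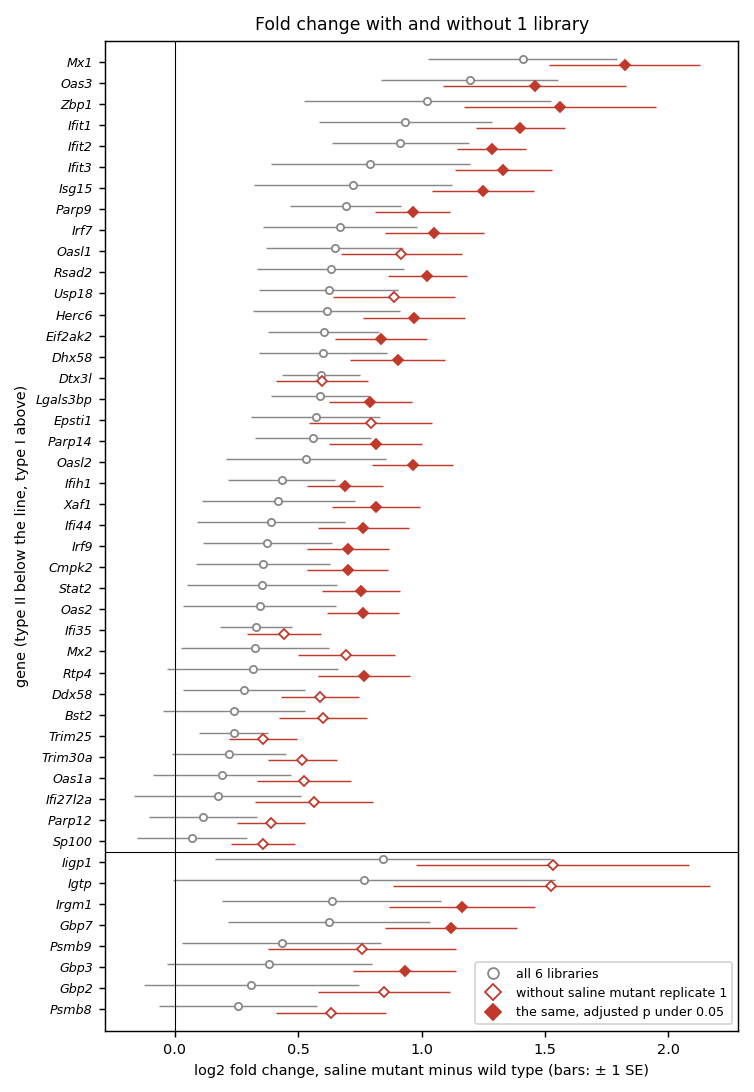
Log2 fold change of each member between saline mutant and wild-type libraries, with all 6 libraries (open grey circles) and without saline mutant replicate 1 (red diamonds, filled where the adjusted p was under 0.05); bars are ± 1 SE. Each red diamond lies at or to the right of its circle, and 27 are filled. The library left out was the one in which the members were lowest.

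The comparison of treated with saline mutants addresses what the base editor treatment did. Of the 46 members 35 had a positive and 11 a negative fold change, against 5673 and 7807 of all 13636 genes tested. The members' median log2 fold change was 0.25, against -0.02 over all genes. The type I median was 0.28 and the type II median -0.18. None passed the test, in which 0.0293% of 13636 genes passed, and 2 members (4.35%) had an unadjusted p under 0.05, both lower, against 8.29% of all genes. Dtx3l was the 1 member whose groups did not overlap, lower in the treated mutants, where 4.34% of all genes were lower and 5.48% higher without overlap. In the authors' deposited list for this comparison 3 members appeared, Ddx58 and Oas2 as higher and Dtx3l as lower, among 137 genes (0.879% of their table). The authors gave no p-value for Ifit1, Ifit2 and Ifit3 here. The sign of the median rested on single libraries. It was -0.22 without treated mutant replicate 2, with 4 members positive, and -0.14 without saline mutant replicate 1, while it was 0.61 without treated mutant replicate 3 and 0.45 without saline mutant replicate 2.

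The comparison of treated mutants with wild types addresses how far treated hearts resembled healthy ones. It shares its libraries with the other comparisons, so its values are not independent of theirs. Fold changes were positive for 45 of 46 members and negative for Dtx3l, where 7142 of all 13554 genes tested were positive. The members' median log2 fold change was 0.71 (0.01 over all genes), 0.76 for type I and 0.23 for type II. None passed the test, in which 0.989% of 13554 genes passed, and 7 members (15.2%) had an unadjusted p under 0.05, all higher, against 12.5% of all genes. Groups did not overlap for 7 members (15.2%), all of type I and all higher, namely Dhx58, Ifit2, Oas2, Herc6, Trim25, Mx1 and Parp9. Of all genes, 9.13% were higher and 5.43% lower without overlap. The authors' deposited list for this comparison held 15 members, all higher and 14 of them of type I, among 317 genes, or 2.06% of their table. That list, like those of the other comparisons, rests on the authors' own test and selection and not on the limma fit. Its count is therefore not on the same footing as the limma count. The authors gave no p-value for Ifit1, Ifit2 and Ifit3, so absence from the list does not mean no change. Their own log2 fold changes for these genes were 3.18, 2.43 and 3.04, where the limma fit gave 1.65, 1.43 and 1.79. Without treated mutant replicate 2 the median was 0.22, and without replicate 3 it was 1.06 and Oas2 (adjusted p = 0.00526) and Herc6 (adjusted p = 0.0465) passed in limma.

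Values below are given in the order of replicates 1, 2 and 3. Within each role the 3 members with the highest mean over the 9 libraries are described, and any others named were picked after their values were seen. Adjusted p-values are those of the limma fits.

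Irf7, Irf9 and Stat2 encode the transcription factors of the set: Irf7 amplifies the production of type I interferon, and Irf9 and Stat2 are subunits of the complex that binds the ISRE. Irf7 stood at 36, 23 and 23 in wild-type, 25, 58 and 55 in saline mutant and 49, 213 and 28 in treated mutant libraries. Treated mutant replicate 2 was thus 7.79 times the wild-type mean, and replicate 3 of the same group lay inside the wild-type range. The log2 fold change of Irf7 was 0.67 ± 0.31 (SE) in saline mutants against wild types (adjusted p = 0.279) and 1.29 ± 0.65 in treated mutants against wild types (adjusted p = 0.481). Irf9 stood at 38, 36 and 29, at 28, 63 and 50, and at 47, 77 and 35 in the same 3 groups. Stat2 stood at 29, 31 and 27, at 21, 57 and 43, and at 45, 82 and 24. Treated mutant replicate 2 was the highest library for all 3 genes, and saline mutant replicate 1 lay below every wild-type library for Irf9 and Stat2 and inside the wild-type range for Irf7.

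Among the sensors of nucleic acids, Ddx58 encodes RIG-I and Ifih1 encodes MDA5, which detect double-stranded RNA in the cytosol, and Eif2ak2 encodes PKR, a kinase that halts translation when it binds such RNA. Ddx58 stood at 23, 28 and 22 in wild-type, 19, 34 and 40 in saline mutant and 33, 118 and 25 in treated mutant libraries. Ifih1 stood at 18, 18 and 15, at 16, 26 and 30, and at 21, 61 and 15. Eif2ak2 stood at 15, 23 and 17, at 20, 33 and 33, and at 18, 65 and 22. All 3 were highest in treated mutant replicate 2 by a wide margin, and in no comparison were their groups apart. The largest of their fold changes was that of Ddx58 in treated mutants against wild types, at 0.91 ± 0.51 (adjusted p = 0.509). Dhx58, a regulator of these sensors, had 3 in all wild-type libraries and 6, 13 and 4 in the treated mutants, and Zbp1, a sensor of Z-form nucleic acids that can trigger cell death, reached 11 in saline mutant replicate 2 from 4, 1 and 2 in the wild types.

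The IFIT proteins, which bind viral RNA and block its translation, showed the widest range. Their genes lie together on chromosome 19, with Ifit1 at chr19:34640871-34650009 (GRCm38). Ifit1 stood at 12, 10 and 11 in wild-type, 11, 26 and 36 in saline mutant and 18, 279 and 9 in treated mutant libraries. Ifit2 stood at 33, 33 and 32, at 37, 72 and 91, and at 39, 458 and 40. Ifit3 stood at 27, 20 and 20, at 18, 48 and 68, and at 38, 499 and 25. In treated mutant replicate 2 the values were 25.4 times the wild-type mean for Ifit1, 14 times for Ifit2 and 22.3 times for Ifit3, while replicates 1 and 3 of that group reached at most 1.7 times, for Ifit3. Saline mutant replicates 2 and 3 lay between 2.15 and 3.27 times the wild-type mean. Ifit2 was apart from the wild types in both mutant groups, with log2 fold changes of 0.91 ± 0.28 (adjusted p = 0.0932) in the saline and 1.43 ± 0.86 (adjusted p = 0.548) in the treated mutants. The Ifit1 and Ifit3 promoters are those shown above with ISRE matches. Ifit3 shares 51.2% of its transcript's 50-base words with its near copy Ifit3b, which itself stood at 8, 7 and 7 in wild types and at 12, 268 and 7 in treated mutants, so how reads were split between them is uncertain.

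**Figure D5:**
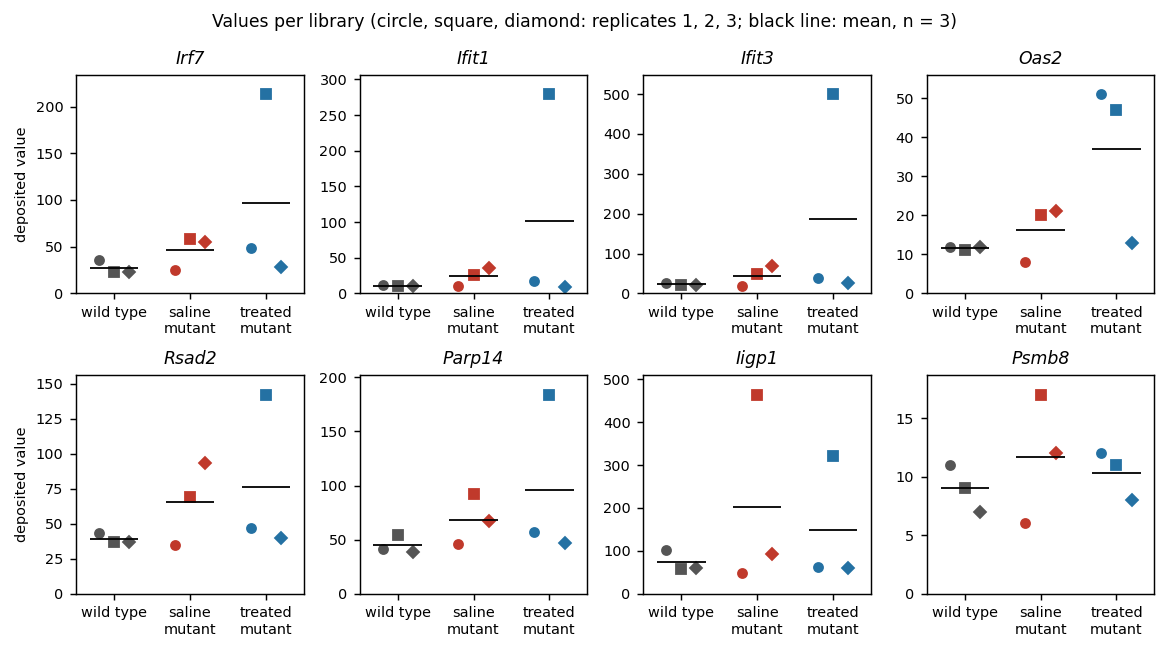
Deposited values of Irf7, Ifit1, Ifit3, Oas2, Rsad2, Parp14, Iigp1 and Psmb8 in the 9 libraries (circle, square and diamond for replicates 1, 2 and 3; black lines are group means, n = 3). Treated mutant replicate 2 (blue square) sets the group mean for Irf7, Ifit1 and Ifit3, Oas2 is as high in replicate 1, and Iigp1 is highest in saline mutant replicate 2 (red square).

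OAS proteins make 2′-5′ oligoadenylates, which activate RNase L, and the OAS-like proteins Oasl1 and Oasl2 act on other antiviral steps. Oasl2 stood at 26, 24 and 19 in wild-type, 18, 43 and 48 in saline mutant and 39, 62 and 22 in treated mutant libraries. Oas2 stood at 12, 11 and 12, at 8, 20 and 21, and at 51, 47 and 13. Oasl1 stood at 4, 3 and 4, at 4, 6 and 10, and at 8, 34 and 4. For Oas2, treated mutant replicate 1 was the highest library, at 4.37 times the wild-type mean, and its groups did not overlap between treated mutants and wild types (log2 fold change 1.37 ± 0.46, adjusted p = 0.272). Oas3, whose ISRE is shown above, was listed at 0, 0 and 1 in the wild types, at 1, 2 and 3 with saline and at 2, 7 and 1 with treatment. Oas1a shares 57.6% of its 50-base words with Oas1g, so its values of 4 to 14 over the 9 libraries are uncertain.

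ISG15 is a ubiquitin-like protein that is attached to other proteins, and the ligases and proteases around it make up the next group. Isg15 stood at 8, 7 and 5 in wild-type, 5, 16 and 18 in saline mutant and 13, 44 and 6 in treated mutant libraries. Usp18, the protease that removes ISG15 and dampens receptor signalling, stood at 9, 5 and 6, at 7, 11 and 15, and at 13, 80 and 6. In treated mutant replicate 2 these were 6.6 and 12 times the wild-type mean, and both genes were within the wild-type range in treated mutant replicate 3. Trim25, a ubiquitin ligase that activates RIG-I, stood at 56, 69 and 68, at 64, 79 and 86, and at 72, 134 and 76. Its treated libraries were all above the wild types, by a log2 fold change of 0.49 ± 0.23 (adjusted p = 0.454). Trim30a, a TRIM-family protein, stood at 22, 23 and 22, at 17, 30 and 35, and at 29, 40 and 21, with overlap in each comparison.

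Dtx3l encodes a ubiquitin ligase, a partner of PARP9, and stood at 24, 20 and 16 in wild-type, 30, 33 and 28 in saline mutant and 17, 18 and 11 in treated mutant libraries. It was higher in every saline mutant library than in any other library, including saline mutant replicate 1, and treated mutant replicate 2 was not high. The log2 fold change was 0.59 ± 0.16 in saline mutants against wild types (adjusted p = 0.0594) and -0.97 ± 0.19 in treated against saline mutants (adjusted p = 0.186), so neither passed. The first passed under 4 of the 17 alternatives (adjusted p down to 0.0386) and the second under 1. Dtx3l lies at chr16:35926511-35939151 on the minus strand and overlaps the first part of Parp9, at chr16:35938470-35972605 on the plus strand. The strand setting of the counting is not given in the sources used here, so reads in the overlap cannot be assigned.

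Of the other antiviral genes, Rsad2 encodes viperin, which makes a chain-terminating nucleotide, Lgals3bp a secreted galectin-binding protein, and Sp100 a component of nuclear bodies. Rsad2 stood at 43, 37 and 37 in wild-type, 35, 69 and 93 in saline mutant and 47, 142 and 40 in treated mutant libraries. Lgals3bp stood at 57, 55 and 40, at 57, 89 and 86, and at 89, 248 and 54. Sp100 stood at 43, 45 and 41, at 30, 52 and 59, and at 51, 55 and 38. Rsad2 and Lgals3bp were highest in treated mutant replicate 2, and Sp100 in saline mutant replicate 3, where it was 1.37 times the wild-type mean. Lgals3bp had log2 fold changes of 0.59 ± 0.20 (adjusted p = 0.13) in the saline and 1.07 ± 0.49 (adjusted p = 0.424) in the treated mutants against wild types. The other 10 genes of this group had log2 fold changes between 0.17 and 1.41 in saline mutants against wild types, with Mx1 at the top.

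Mx1 had a value of 1 in all wild-type libraries, of 2, 4 and 9 in the saline mutants and of 2, 4 and 2 in the treated mutants, with a log2 fold change of 1.41 ± 0.38 (adjusted p = 0.0642) in the saline mutants. Mx1 and Mx2 encode antiviral GTPases, but C57BL/6 mice carry defective copies of both, and the annotation lists Mx2 as a polymorphic pseudogene. At such low values 1 unit of rounding is a large part of the change.

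The PARP family is named for enzymes that add ADP-ribose to proteins, and the members followed here take part in antiviral signalling. Parp14 stood at 41, 54 and 39 in wild-type, 46, 92 and 67 in saline mutant and 57, 184 and 47 in treated mutant libraries. Parp9 stood at 28, 28 and 25, at 30, 61 and 47, and at 36, 86 and 33. Parp12 stood at 36, 33 and 30, at 24, 42 and 45, and at 39, 107 and 31. Every mutant library exceeded every wild-type library for Parp9, with log2 fold changes of 0.69 ± 0.22 (adjusted p = 0.116) in the saline and 0.77 ± 0.33 (adjusted p = 0.397) in the treated mutants. Parp9 and Dtx3l, which are annotated head to head, both stood above the wild types in the saline mutants, while in the treated mutants Parp9 remained above and Dtx3l did not.

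The interferon-inducible GTPases, which attack the membranes around intracellular microbes, were highest as a group in saline mutant replicate 2. Igtp stood at 28, 19 and 17 in wild-type, 12, 164 and 23 in saline mutant and 35, 100 and 14 in treated mutant libraries. Iigp1 stood at 101, 58 and 61, at 49, 464 and 92, and at 62, 321 and 61. Irgm1, a regulator of the other GTPases, stood at 36, 31 and 27, at 23, 107 and 47, and at 45, 171 and 29. Saline mutant replicate 2 reached 7.69 times the wild-type mean for Igtp, 6.33 times for Iigp1 and 3.41 times for Irgm1, and treated mutant replicate 2 reached 4.69, 4.38 and 5.46 times. For these 3 genes the libraries with replicate number 2 were therefore the highest of both mutant groups, and saline mutant replicate 3, high for the IFIT genes, was at 1.08 to 1.5 times the wild-type mean. The SE of the log2 fold change of Igtp in saline mutants against wild types, 0.77, was as large as the change itself, 0.77 (adjusted p = 0.662).

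Gbp2, Gbp3 and Gbp7 encode guanylate-binding proteins, and their genes are neighbours on chromosome 3. In saline mutant replicate 2 they stood at 75, 69 and 69, from 25 to 37, 24 to 33 and 18 to 25 in the wild types. In treated mutant replicate 2 they stood at 42, 45 and 41, which is 1.4, 1.57 and 1.84 times the wild-type mean. Gbp2, Gbp3 and Gbp7 were thus closer to wild type in that library than Igtp, Iigp1 and Irgm1 were. This did not hold for the whole family. Gbp6 and Gbp10, which are no members, stood at 127 and 15 there, against 5 to 7 and 1 in the wild types. Gbp4, Gbp5 and Gbp9 stood at 34, 21 and 51, against 16 to 23, 16 to 19 and 32 to 44. Igtp shares 11.8% of its 50-base words with Irgm2, which stood at 257 in saline mutant replicate 2 and at 153 in treated mutant replicate 2, against 36 to 54 in the wild types.

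Psmb8 and Psmb9 encode catalytic subunits that replace those of the standard proteasome and favour the making of peptides for MHC class I. Psmb8 stood at 11, 9 and 7 in wild-type, 6, 17 and 12 in saline mutant and 12, 11 and 8 in treated mutant libraries. Psmb9 stood at 11, 8 and 4, at 6, 18 and 9, and at 7, 8 and 7. Both were highest in saline mutant replicate 2, and neither stood out in treated mutant replicate 2, at 1.22 and 1.04 times the wild-type mean. Their groups overlapped in all 3 comparisons.

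The genes upstream of the members were followed through a list of 42 pathway genes, of which 32 were in the tables and 31 could be tested. The 10 interferon ligands of that list were not analysed here. Of the 31 genes, 1 rose and 2 fell in saline mutants against wild types (7.71% of all genes passed), and none passed in treated against saline mutants (0.0293%) or in treated mutants against wild types (0.989%). At an unadjusted p under 0.05 the counts were 9 (29%, against 19.9% of all genes), 5 (16.1% against 8.29%) and 4 (12.9% against 12.5%). The median log2 fold change over the 31 was 0.19, 0.01 and 0.12 in the 3 comparisons.

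The 3 genes that passed were receptor chains. Il10rb, the chain shared by the receptors of interleukin-10 and of type III interferon, fell from 79, 74 and 80 in wild types to 50, 52 and 53 in saline mutants, a log2 change of -0.58 ± 0.09 (adjusted p = 0.00735, limma), and was at 71, 69 and 60 in treated mutants. It passed under all 17 alternative settings. Ifngr2, the signalling chain of the type II receptor, fell from 193, 209 and 192 to 138, 148 and 142, a change of -0.47 ± 0.09 (adjusted p = 0.0153), and was at 150, 146 and 171 in treated mutants. Ifnlr1, the other chain of the type III receptor, rose from 3, 3 and 4 to 7, 6 and 6, by 0.76 ± 0.17 (adjusted p = 0.0305). Across the saline mutant libraries, saline mutant replicate 1 included, Il10rb stayed within 50 to 53 and Ifngr2 within 138 to 148. Ifngr2 missed the threshold without wild-type replicate 2 or 3 or saline mutant replicate 1 or 2 (adjusted p up to 0.067, limma). Ifnlr1 missed it without wild-type replicate 1 or 2 or any 1 of the saline mutant libraries, and without the 3 libraries with Xist. Both genes also missed it with the replicate number as a block.

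The remaining receptor chains did not pass. Ifnar1, a chain of the type I receptor, stood at 34, 43 and 35 in wild-type, 36, 39 and 51 in saline mutant and 32, 39 and 40 in treated mutant libraries. Its partner Ifnar2 stood at 24, 24 and 20, at 20, 23 and 27, and at 19, 21 and 21. Ifngr1, the ligand-binding chain of the type II receptor, stood at 82, 91 and 90, at 103, 109 and 165, and at 102, 99 and 116, with log2 fold changes of 0.48 ± 0.17 (adjusted p = 0.151) in the saline and 0.26 ± 0.10 (adjusted p = 0.344) in the treated mutants against wild types. Every mutant library exceeded every wild-type library for Ifngr1. Neither type I chain was high in treated mutant replicate 2, where the type I members were highest.

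Irf1, a transcription factor induced strongly by type II interferon, stood at 30, 24 and 21 in wild-type, 20, 43 and 26 in saline mutant and 28, 21 and 22 in treated mutant libraries. It was highest in saline mutant replicate 2, where the type II members were highest, and at the wild-type level in treated mutant replicate 2. Its groups overlapped in all 3 comparisons (adjusted p between 0.756 and 0.921, limma).

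Markers of other cells were read in the same libraries. The 4 T cell markers in the tables summed to 1 to 3 and the 2 NK cell markers to 0 to 2 in any library, dendritic cell markers to 0 to 4, and monocyte and neutrophil markers to 3 to 11. These sums were as low in saline mutant replicate 2 and treated mutant replicate 2 as elsewhere. Cardiomyocyte markers summed to 33089 to 44386 and endothelial markers to 695 to 1132 over the 9 libraries. Fibroblast markers summed to 1325, 1215 and 959 in wild types, to 1509, 1551 and 2295 in saline mutants and to 1121 to 1391 in treated mutants, so every saline mutant library was above every wild type. Blood markers summed to 278, 313 and 104 in wild types, to 69, 78 and 85 in saline mutants and to 140 to 158 in treated mutants, so every saline mutant library was below every wild type. The part of these sums in the members' values was not tested.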

How the data were processed

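Each of the 9 libraries is 1 sample of polyA RNA from adult mouse heart. Per the submitters' processing notes, HISAT2, HTSeq and DESeq2 were used with the build mm10. The deposited values carry no named unit. They are whole numbers that sum to about the same total in every library, so they were treated as a score that the authors normalized to a fixed total and rounded. The log2 fold changes and the p-values in the deposited comparison tables are those of the authors. They are quoted as list membership, and for Ifit1, Ifit2 and Ifit3 in treated mutants against wild types also as log2 fold changes.

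Values were taken as log2(value + 1) for genes with a mean of at least 1 over the 6 libraries of a comparison. limma 3.58.1 (R 4.3.3) was fitted to each pair of groups, with residual variances floored at the variance of rounding (1/12 on the value scale) and the weight of the variance prior estimated on genes averaging 30 or more. P-values were adjusted over all genes tested (Benjamini-Hochberg), and genes under 0.05 were called. The fit was tested on simulated data in which all genes had the same relative spread. Many members varied more than that between libraries, so the test does not show how the fit performs on them. Folds against the wild-type mean use the values as deposited.

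Each comparison was refitted under 17 alternatives. The labels do not say whether replicate numbers pair the libraries, and the main fits did not treat them as pairs. The members and the pathway and marker lists were chosen with earlier results of these data known. Genes were named by role: the 3 members with the highest mean per class, members and pathway genes that passed, Irf1 and the receptor chains; a further gene of this rule is not reported here. Promoter sequences are from RefSeq (GRCm38.p6), and gene positions from GENCODE (GRCm38).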

Additional observations from a re-analysis of the deposited data

How the results depend on the processing

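The 17 alternatives for each comparison changed the pseudocount, the filter, the scaling, the variance model and the libraries. In saline mutants against wild types, the count of members called, 0, became 1 with pseudocount 0.1 (7.63% of all genes passed), 1 with a filter at a mean of 10 (9.38%), 2 with median-of-ratios scaling (9.44%), 1 with upper-quartile scaling (9.63%), 2 with the prior from all genes (8.82%), 1 without the 3 libraries with Xist (4.24%), and 0 to 27 when 1 library was left out. The high count came without saline mutant replicate 1, the library in which the members were lowest. A count of 1 or 2 of 46 members is a smaller share than that of all genes under each setting whose percentage is given above. With the replicate number as a block, the counts were 3 members (6.04% of all genes passed) and 1 pathway gene, Il10rb, since Ifngr2 and Ifnlr1 missed the threshold, and in treated against saline mutants 1 member, Dtx3l (adjusted p = 0.0489); the block changed no other count of members or pathway genes called. Same-numbered libraries of the saline mutants and wild types had correlations of deviations of -0.28, -0.04 and -0.42, those of the treated and saline mutants -0.08, 0.20 and 0.10, and those of the treated mutants and wild types 0.62, 0.18 and 0.03. Leaving out 1 library gave 1 to 3 pathway genes in saline mutants against wild types and 0 to 2 members in treated mutants against wild types. Of the single genes followed, counted once per gene and alternative, 43 gained a call, 12 lost one (Ifngr2 and Ifnlr1), and 111 changed or lost their sign without a call in either fit. Values of 1 to 10 are limited by rounding to whole numbers, and depth is not known.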

Other observations

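Ranked by how far treated mutant replicate 2 stood above the higher of the other 2 treated libraries, 20 of the 46 members were among the top 50 of 13530 genes, 17 of them type I. The same list held further interferon-stimulated genes that are no members. Ddx60, a helper of the RNA sensors, stood at 5, 55 and 7 in treated mutant replicates 1, 2 and 3, and at 4 to 6 in the wild types. Uba7, the enzyme that activates ISG15, stood at 24, 69 and 23, against 20 to 22 in the wild types. It also held genes outside the interferon response: Ppargc1a, a coactivator of mitochondrial genes, stood at 82, 286 and 97, against 66 to 100 in the wild types, and Irs2, an adaptor of the insulin receptor, at 17, 50 and 19, against 11 to 14. These genes were named after their values were seen.

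Ranked the same way, saline mutant replicate 2 had 7 members in its top 50, of which 6 were type II. With them stood Tap1, which carries peptides to MHC class I, at 15, 65 and 24 in saline mutant replicates 1, 2 and 3, and Nlrc5, an activator of class I genes, at 4, 30 and 10. The wild types held 14 to 21 for Tap1 and 5 in each library for Nlrc5, and treated mutant replicates 1, 2 and 3 held 21, 51 and 16 for Tap1 and 11, 27 and 5 for Nlrc5. The GTPase genes BC023105 and F830016B08Rik were near 0 in most libraries but stood at 67 and 39 in saline mutant replicate 2 and at 26 and 41 in treated mutant replicate 2.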
